A study of Macaca mulatta with 6 samples.

Results

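The genes described here are 53 genes of microglia, the resident macrophages of brain tissue, and of the macrophages that line its vessels and meninges. They were chosen by symbol, with complement genes left out, and matched to rhesus gene identifiers. Of the 53 genes, 48 had a row among the 23191 rows of expression values, and 47 had a mean of at least 10 normalized counts over the 6 libraries, among 16595 genes that reached this level in all. TMEM119, CX3CR1, OLFML3, CSF2RA and AIF1 were not analysed here. The lowest gene inside the limit was LYVE1, with a mean of 13.4 normalized counts, and the gene outside it was MSR1, with a mean of 3.72.

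The cells were labelled as adult neurons purified from cortex, and their polyadenylated RNA was sequenced. The donors were male rhesus monkeys (Macaca mulatta) 3 to 4 years old. The 3 morphine libraries came from monkeys injected under the skin with this opioid 3 times daily over 90 days, in a dose that began at 3 mg/kg and reached 15 mg/kg on day 29. The 3 saline libraries came from monkeys injected on the same schedule with saline, 0.5 mL/kg each time. The labels name no genetic change in either group. The study had 4 monkeys, 2 per group, and the description labels carry 1 code for each group. A group's 3 libraries thus hold at most 2 animals, and possibly only 1. P-values between libraries therefore understate the uncertainty over animals, and morphine cannot be told apart from differences between animals. The series asks how chronic morphine alters chromatin architecture.

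Microglia depend on the receptor CSF1R, which binds the growth factors CSF1 and IL34. In resting tissue they carry surface receptors such as P2RY12, which senses nucleotides released by cells, while the lipid receptor TREM2 signals through the adaptor TYROBP and the kinase SYK and is needed for a phagocytic state described in mice. Border macrophages of the meninges and perivascular spaces are recognised by scavenger and hyaluronan receptors such as CD163, MRC1 and LYVE1.

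These macrophage genes were a small part of libraries in which transcripts of neurons, astrocytes and oligodendrocytes were all abundant. The 48 genes took 0.191% to 0.195% of the reads in morphine libraries and 0.175% to 0.177% in saline libraries, out of 31238653 to 36345095 recovered reads per library. The cathepsin genes CTSB and CTSD, which many brain cell types use, took the most of these reads. Markers of other cells moved with the groups, called in limma as described below, where 12.9% of all genes tested rose and 15.0% fell. Of 10 astrocyte markers 7 fell and 1 rose, and their summed level was 252263 to 255500 normalized counts in the morphine libraries and 316014 to 322529 in the saline libraries. Of 14 pan-neuronal markers 6 fell and 3 rose (387659 to 392754 in morphine and 451858 to 460748 in saline libraries), though without 1 library 0 or 1 of them rose. Among leptomeningeal fibroblast markers 5 of 10 rose and the others did not pass (9508 to 9920 in morphine and 7621 to 7815 in saline libraries). PDGFRA, which is also on the oligodendrocyte precursor list and did not pass, made up much of this sum (4880 to 5127 in morphine and 4426 to 4628 in saline libraries). Of 6 oligodendrocyte precursor markers 4 rose (23654 to 24312 in morphine and 19520.5 to 19701 in saline libraries), with 2 in each fit without 1 library. Of 9 mural cell markers 4 rose and 1 fell (10884 to 11306 in morphine and 9844 to 10300.3 in saline libraries), with 2 or 3 rises in fits without 1 library. CSPG4, which rose, is on both this list and the oligodendrocyte precursor list. Of 8 endothelial markers 3 fell (12176 to 18001 in morphine and 14422 to 15173 in saline libraries). SLC2A1, at 10010, 10307 and 4424 in the morphine libraries and 4446 to 5273 in saline libraries, widened this range. The other 7 endothelial markers had negative log2 fold changes. Of 8 oligodendrocyte markers 3 rose and 2 fell (266868 to 269161 in morphine and 260742 to 265315 in saline libraries), with 1 or 2 and 0 or 1 in fits without 1 library. Their part in the results below was not tested. In RNA from many cells together, a change in the number of cells of a type and a change in RNA per cell cannot be told apart.

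Of the 47 macrophage genes, 11 rose and 8 fell with morphine, at an adjusted p under 0.05 in limma with Benjamini-Hochberg adjustment over all 16595 genes. Over all genes tested 27.9% were called, 12.9% as higher and 15.0% as lower with morphine. Among the macrophage genes 40.4% were called, 23.4% as higher and 17.0% as lower. The rises thus stood above the background share and the falls near it, as a description with no test of the list. In edgeR, fitted to recovered reads with its quasi-likelihood test, 14 rose and 7 fell, where 34.0% of all genes were called, and in DESeq2 15 rose and 7 fell, where 36.8% were. In limma fits without 1 library 7 to 9 rose and 4 to 6 fell, with 7 rises without morphine library 1 or 2 or saline library 2, and 4 falls without any 1 of the saline libraries. Over all 16595 genes 2536 to 3181 were called in these fits, against 4631 with all 6 libraries. The median log2 fold change of the macrophage genes was 0.21, beside 0.01 over all genes tested, and 34 of the 47 values were positive. The morphine and saline libraries did not overlap for 29 of the 47 genes, 19 of them higher and 10 lower with morphine, where 48.7% of all genes tested had groups that did not overlap. Among changes of over 1.5 fold 6 genes rose and 4 fell, where 10.4% of all genes tested passed both limits, 4.81% as higher and 5.59% as lower. The spread within groups was a little wider than for other genes, with a median coefficient of variation of 11.9% in morphine and 9.40% in saline libraries, beside 8.26% and 8.86% over all genes tested.

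**Figure D1:**
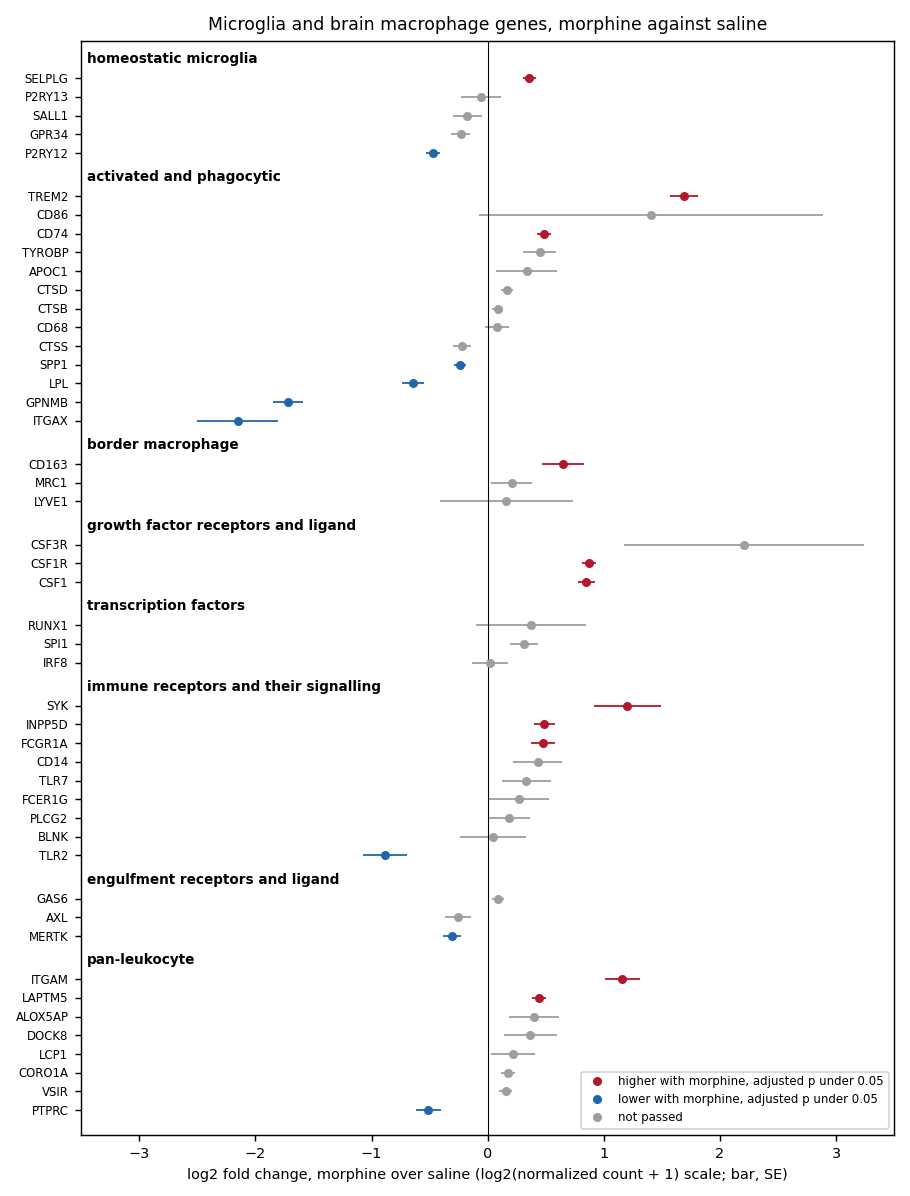
Log2 fold change of each of the 47 tested genes, morphine over saline, on the log2(normalized count + 1) scale, with its SE from limma as a bar, grouped by role. Colour marks genes called at an adjusted p under 0.05: TREM2 at 1.69 was the highest called value and ITGAX at -2.15 the lowest, both in the activated and phagocytic group, while the 3 transcription factors were not called.

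Among homeostatic microglia genes, P2RY12 fell and SELPLG rose, and GPR34, SALL1 and P2RY13 did not pass the test. P2RY12 (ENSMMUG00000001105), the nucleotide receptor that guides microglial processes, had 1447, 1372 and 1503 normalized counts in the morphine libraries and 1936, 2041 and 2012 in the saline libraries. All morphine libraries lay below all saline libraries. The log2 fold change was -0.47 ± 0.0582 (SE, n = 3 libraries per group), with a limma adjusted p of 0.00636. SELPLG, the selectin ligand of leukocytes, had 1047, 1131 and 1035 normalized counts in morphine libraries, against 843, 829.9 and 833 in saline libraries. Its groups did not overlap either, in the opposite direction, and it rose by 0.36 ± 0.0562 on the log2 scale with a limma adjusted p of 0.0114.

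GPR34, a receptor for lysophosphatidylserine, had 752, 708 and 665 normalized counts with morphine and 789, 801 and 911 with saline. Each morphine library was below each saline library, but the log2 fold change of -0.23 ± 0.0847 did not pass in limma (adjusted p = 0.0988). SALL1, a transcription factor that keeps microglial identity in mice, had 1392, 1014 and 1161 normalized counts in morphine libraries and 1353, 1315 and 1330 in saline libraries. Morphine library 1 was the highest of all 6 and libraries 2 and 3 were the lowest, so the groups overlapped (log2 fold change -0.18 ± 0.124). P2RY13, a nucleotide receptor related to P2RY12, had 363 to 497 normalized counts with morphine and 381 to 513 with saline, with a log2 fold change of -0.06 ± 0.173.

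The activated and phagocytic genes held the largest called changes in both directions, with 2 rises and 4 falls among 13 tested. At 15.4% the rises were near the 12.9% of all genes tested, and at 30.8% the falls were above the 15.0%. TREM2 (ENSMMUG00000013920), the lipid receptor of phagocytic microglia, had 503, 389 and 497 normalized counts in morphine libraries, against 147, 144 and 135 in saline libraries. The lowest morphine library was well above the highest saline library. Its log2 fold change of 1.69 ± 0.118 (SE, n = 3 libraries per group) is 3.22 fold, with a limma adjusted p of 0.00228. TYROBP, the adaptor through which TREM2 signals, had 225, 199.7 and 281 normalized counts with morphine and 181, 176 and 156 with saline. The groups did not overlap, yet the log2 fold change of 0.45 ± 0.143 did not pass (limma adjusted p = 0.0742). CD74, the invariant chain that accompanies MHC class II proteins, had 1892, 1905 and 1814 normalized counts with morphine and 1287, 1409 and 1312 with saline. It rose by 0.49 ± 0.0589 on the log2 scale (limma adjusted p = 0.00605), with groups well apart.

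The other members of the phagocytic state that were called moved the opposite way. GPNMB (ENSMMUG00000012648), a glycoprotein of lipid-laden macrophages, had 173, 216 and 179 normalized counts in morphine libraries, against 643, 687 and 544 in saline libraries. It fell by 1.72 on the log2 scale (SE 0.13), to 0.304 of the saline level, with a limma adjusted p of 0.00266. LPL, the lipase that frees fatty acids from lipoproteins and that neurons make as well, had 1587, 1339 and 1611 normalized counts with morphine and 2427, 2389 and 2249 with saline. Each morphine library was below each saline library, and LPL fell by 0.64 on the log2 scale (SE 0.091, limma adjusted p = 0.00866).

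ITGAX, the integrin CD11c, is outside the rule for genes shown by library and was chosen after its values had been seen. It had 57.4, 37.2 and 22.1 normalized counts in morphine libraries, from 54, 41 and 23 reads, against 174, 146 and 175 in saline libraries. The morphine libraries were widely spread but all lay below the saline libraries, and ITGAX fell by 2.15 on the log2 scale (SE 0.347, limma adjusted p = 0.0122). SPP1, the secreted protein osteopontin, which neurons also make, had 3850.1 to 4179 normalized counts with morphine and 4704 to 4752 with saline, and fell by 0.24 on the log2 scale (SE 0.0529, limma adjusted p = 0.0279). SPP1 passed in limma without morphine library 1 but not without any of the other 5 libraries (adjusted p from 0.0717 to 0.0853).

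The lysosomal proteases and the remaining phagocytic genes showed small differences that did not pass in limma. The log2 fold changes were 0.17 for CTSD, 0.08 for CTSB, 0.08 for the lysosomal protein CD68, -0.22 for CTSS, a cathepsin of antigen presentation, and 0.34 for the apolipoprotein APOC1. CTSS had 553 to 565 normalized counts with morphine and 596 to 717 with saline, so its groups did not overlap, with morphine lower. For CTSD and CTSB the groups did not overlap either, with morphine higher, and both passed in edgeR (adjusted p = 0.00908 and 0.0419), in DESeq2 and in the authors' deposited table (adjusted p = 0.000213 and 0.0362). CD86, a costimulatory protein, was at 24.4, 22.7 and 32.7 normalized counts with morphine and at 39.5 and 26.1 in saline libraries 1 and 2, and it was listed at 0 in saline library 3. Its log2 fold change of 1.40 ± 1.48 rests on that value and is -0.28 without saline library 3. APOC1 has a near-identical copy in some primates, so its value is uncertain where reads could be split.

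**Figure D2:**
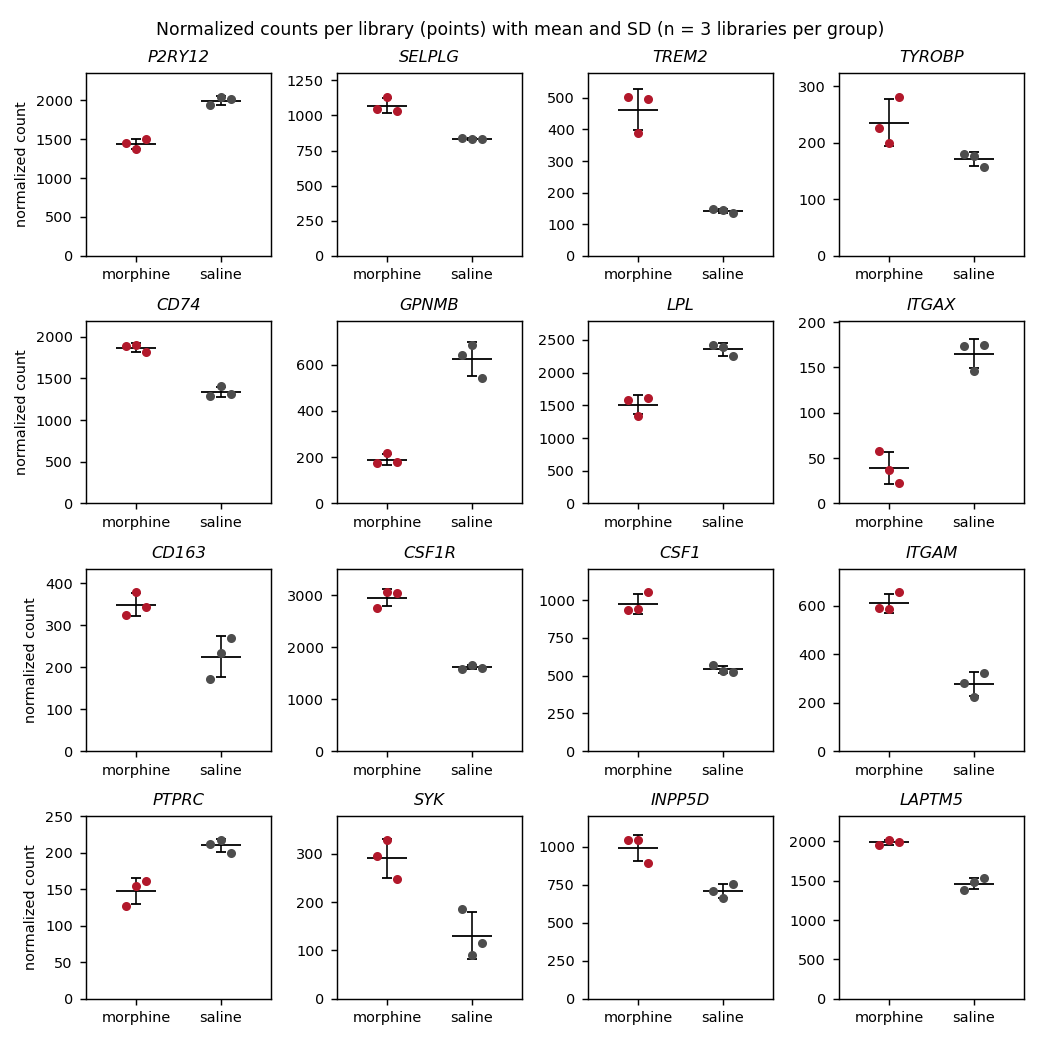
Normalized counts of 16 genes in each library (points), with the mean and SD of the 3 libraries of a group as a line and bars, morphine in red and saline in grey, each axis starting at 0. Only genes whose groups did not overlap are shown, as held for 29 of the 47 tested genes. The 3 morphine libraries lie above the 3 saline libraries in 11 panels and below them in P2RY12, GPNMB, LPL, ITGAX and PTPRC.

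Of the border macrophage genes, CD163 was called at the limit of the test and MRC1 and LYVE1 did not pass. CD163, the scavenger receptor for haemoglobin bound to haptoglobin, had 324, 379 and 344 normalized counts in morphine libraries and 173, 234 and 270.0 in saline libraries. The groups did not overlap, although the saline libraries were widely spread, and CD163 rose by 0.65 ± 0.179 on the log2 scale (limma adjusted p = 0.04998). It passed without saline library 3 but not without saline library 1 or 2 or morphine library 1, 2 or 3 (limma adjusted p from 0.0546 to 0.135), nor with TMM scaling.

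MRC1, the mannose receptor, had 219, 186 and 173 normalized counts with morphine and 193, 132 and 179 with saline, in overlapping ranges (log2 fold change 0.21 ± 0.175). LYVE1, a receptor for hyaluronan, had 7, 23 and 14 reads in morphine libraries and 16, 5 and 17 in saline libraries, which gave no order between the groups. MSR1, a scavenger receptor below the level for testing, had 4, 4 and 15 reads in morphine libraries and 0 in each saline library. With 0 reads counted, as many as 3 per library remain possible. Fibroblasts share the meninges with these cells, and 5 of their 10 tested markers rose, among them the collagen gene COL1A1, by 3.54 on the log2 scale (limma adjusted p = 0.00104). Their part in the level of CD163 was not tested.

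Set side by side, the 5 measured homeostatic genes had a median log2 fold change of -0.18, and the 16 tested activated and border genes had a median of 0.16. The median over all genes tested was 0.01. Among the homeostatic genes 1 rose and 1 fell, and 4 of the 5 values were negative. Among the activated and border genes 3 rose (18.8%) and 4 fell (25.0%), and 11 of the 16 values were positive, where 12.9% of all genes tested rose and 15.0% fell. The medians per library, taken against the mean of each gene in saline, were -0.14, -0.23 and -0.20 in morphine libraries for the homeostatic genes, where saline libraries gave -0.04, -0.01 and 0.01. For the activated and border genes they were 0.19, 0.13 and 0.09 in morphine libraries and 0.05, 0.01 and -0.000389 in saline libraries. By these medians the morphine libraries lay below the saline libraries for the first group and above them for the second. The summed level of the homeostatic genes was also lower, at 4695 to 5002 normalized counts in morphine and 5302 to 5576 in saline libraries. P2RY12 was the largest part of this sum in each library, and without it the sums of the groups overlapped. The median of -0.18 was the value of SALL1, whose groups overlapped. The summed level of the activated and border genes overlapped (34984.5 to 36731 in morphine and 34826 to 35204 in saline libraries). Their median was below that of all 47 macrophage genes (0.21), so a positive median was not particular to them. The median of the homeostatic genes ranged from -0.28 to -0.11 and that of the activated and border genes from 0.10 to 0.24 in fits without 1 library, and these differences have no test. The homeostatic group lacks 3 of its 8 genes.

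Ratios of genes within a library do not depend on how libraries are scaled, and 6 pairs were compared. The pairs of genes were chosen with values known, and the size of a ratio depends on the lengths of both transcripts, so that only its difference between libraries is read. The ratio of TREM2 to P2RY12 was 0.347, 0.283 and 0.331 in morphine libraries, against 0.0759, 0.0707 and 0.0671 in saline libraries, a mean 4.50 times as high. TREM2 to its adaptor TYROBP stood at 2.23, 1.95 and 1.77 in morphine libraries and at 0.814, 0.818 and 0.865 in saline libraries. ITGAX to ITGAM, the alpha chains of related integrins, stood at 0.0971, 0.0638 and 0.0338 with morphine and at 0.615, 0.658 and 0.544 with saline, so that these relatives moved in opposite directions. CD163 to MRC1, both of border macrophages, stood at 1.48, 2.03 and 1.99 in morphine libraries and at 0.893, 1.77 and 1.51 in saline libraries, and here the groups overlapped.

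**Figure D3:**
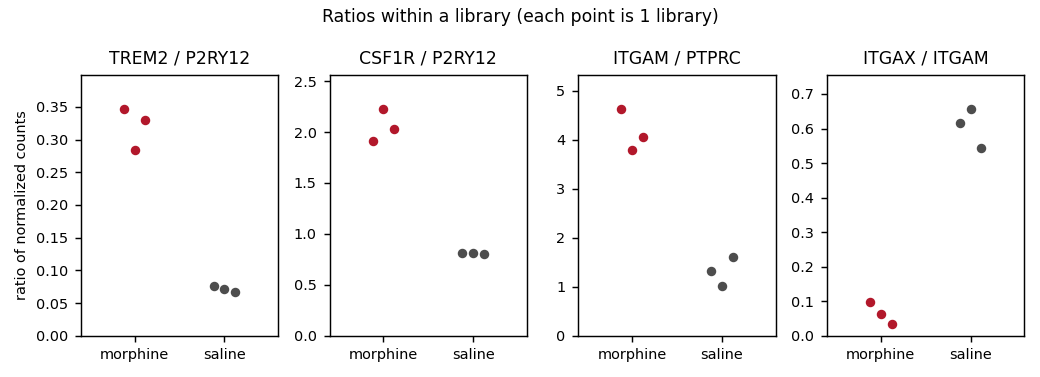
Ratio of the normalized counts of 2 genes within each library (1 point per library, morphine in red and saline in grey, axes from 0). The morphine libraries lie above the saline libraries for TREM2 to P2RY12, CSF1R to P2RY12 and ITGAM to PTPRC, and below them for ITGAX to ITGAM. The pair CD163 to MRC1, whose groups overlapped, is not shown, nor is TREM2 to TYROBP.

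The growth factor receptor CSF1R and its ligand CSF1 rose together. CSF1R (ENSMMUG00000011556), the receptor on which microglia depend, had 2763, 3059 and 3055 normalized counts in morphine libraries, against 1578, 1657 and 1609 in saline libraries. It rose by 0.87 ± 0.0633 on the log2 scale (SE, n = 3 libraries per group), with a limma adjusted p of 0.0025. CSF1, which neurons and glia secrete, had 934, 939 and 1051 normalized counts with morphine and 569, 528 and 525 with saline, and rose by 0.85 ± 0.0728 (limma adjusted p = 0.00327). The ratio of CSF1R to P2RY12 was 1.91, 2.23 and 2.03 in morphine libraries, against 0.815, 0.812 and 0.7998 in saline libraries. For CSF1R and CSF1 the morphine libraries stood clear of the saline libraries, and both calls held in each of the 6 fits without 1 library. CSF3R, the receptor of a granulocyte growth factor, had 81, 67 and 50 reads in morphine libraries and 2, 44 and 18 in saline libraries. All morphine libraries were higher, but the saline libraries differed so widely that the log2 fold change of 2.21 ± 1.04 did not pass (limma adjusted p = 0.172), although it passed in DESeq2 (adjusted p = 0.0369). IL34, the other ligand of CSF1R, which neurons make, did not pass in limma (log2 fold change 0.11 ± 0.0479, adjusted p = 0.162). All its morphine libraries were above all saline libraries, and it passed in edgeR (adjusted p = 0.0209) and DESeq2 (adjusted p = 0.0101).

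The 3 transcription factors of the myeloid lineage did not pass in limma, edgeR or DESeq2, and 1 had an unadjusted limma p under 0.05. SPI1, the factor PU.1 that sets the myeloid programme, had 498, 602 and 541 normalized counts in morphine libraries and 504, 397 and 421 in saline libraries, with overlap at 1 library of each group. Its log2 fold change was 0.31 ± 0.121, with a limma adjusted p of 0.114. IRF8, its partner in microglia, had 322, 469 and 355 normalized counts with morphine and 363, 403 and 353 with saline (log2 fold change 0.02 ± 0.156). RUNX1, a factor of early blood cell development, was low and variable, with 33 to 56 reads in morphine libraries and 17 to 56 in saline libraries.

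Of 9 immune receptors and signalling partners 3 rose (33.3%) and 1 fell (11.1%), where 12.9% and 15.0% of all genes tested did. Of the 9 values 8 were positive. INPP5D, the lipid phosphatase SHIP1 that restrains receptor signalling, had 1044, 1046 and 896 normalized counts in morphine libraries and 711, 661 and 754 in saline libraries. It rose by 0.49 ± 0.0911 on the log2 scale (limma adjusted p = 0.0179). SYK, the kinase downstream of TYROBP, was named after its values had been seen. It had 295, 329 and 249 normalized counts with morphine and 186, 91.2 and 115 with saline, and rose by 1.20 ± 0.285 (limma adjusted p = 0.0334).

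FCGR1A, the high-affinity receptor for immunoglobulin G, had 467, 411 and 456 normalized counts in morphine libraries and 353, 285 and 325 in saline libraries, and rose by 0.47 ± 0.102 (limma adjusted p = 0.026). It has near-identical copies in human, and its value is uncertain where reads could be split between such copies. TLR2, a receptor for bacterial lipoproteins, had 24, 44 and 32 reads with morphine and 59, 52 and 64 with saline, and fell by 0.88 on the log2 scale (SE 0.189, limma adjusted p = 0.0252). It did not pass in edgeR (adjusted p = 0.0582), in DESeq2 (adjusted p = 0.0839) or in the authors' deposited table (adjusted p = 0.128). Each of these 4 calls was lost in most of the 6 fits without 1 library. In those fits 2536 to 3181 of all genes were called, against 4631 with all 6 libraries. INPP5D did not pass in limma without morphine library 1 or 2 or saline library 1 or 2 (adjusted p from 0.0532 to 0.0611). SYK and FCGR1A passed without saline library 1 but not without any of the other 5 libraries (adjusted p from 0.0684 to 0.0989 and from 0.0511 to 0.0803). TLR2 passed without morphine library 2 but not without any of the other 5 (adjusted p from 0.0519 to 0.0765).

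The remaining receptors and signalling genes did not pass in limma or in edgeR. The lipopolysaccharide co-receptor CD14 had a log2 fold change of 0.43 ± 0.213, with 281, 298 and 364 normalized counts with morphine and 277, 259 and 173 with saline. TLR7, a sensor of single-stranded RNA, stood at 0.33 ± 0.211, the Fc receptor gamma chain FCER1G at 0.27 ± 0.261, the phospholipase PLCG2 at 0.19 ± 0.178 and the adaptor BLNK at 0.05 ± 0.283. The direction of FCER1G and of BLNK turned in fits without 1 library.

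Of the receptors for the engulfment of dying cells, MERTK fell and AXL did not pass, and neither did their shared ligand GAS6. MERTK, which astrocytes also use to engulf synapses in mice, had 2085, 1916 and 2133 normalized counts in morphine libraries, against 2354, 2720 and 2531 in saline libraries. The groups did not overlap and MERTK fell by 0.31 on the log2 scale (SE 0.0796, limma adjusted p = 0.0414), but the call was lost whichever of the 6 libraries was left out (adjusted p from 0.0504 to 0.112). It fell in libraries where 7 of 10 astrocyte markers fell, and the part of astrocytes in its level was not tested. AXL had 646, 821 and 761 normalized counts with morphine and 809, 907 and 934 with saline (log2 fold change -0.25 ± 0.113, limma adjusted p = 0.154). GAS6 had 4147, 4273 and 4335 normalized counts with morphine and 3872, 4051 and 4080 with saline, with each morphine library higher and a log2 fold change of 0.09 ± 0.0509 that did not pass.

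The pan-leukocyte genes split as well, with ITGAM and LAPTM5 higher and PTPRC lower with morphine. ITGAM, the integrin CD11b, had 591, 584 and 654 normalized counts in morphine libraries, against 282, 223 and 322 in saline libraries, and rose by 1.16 ± 0.149 (limma adjusted p = 0.00704). LAPTM5, a lysosomal membrane protein of blood cells, had 1951, 2018 and 1993 normalized counts with morphine and 1383, 1478 and 1531 with saline, and rose by 0.44 ± 0.0587 (limma adjusted p = 0.00759). Both had clearly separate groups. PTPRC, the leukocyte phosphatase CD45, had 128, 154 and 161 normalized counts with morphine and 212, 218 and 200.4 with saline. All morphine libraries were lower and PTPRC fell by 0.51 on the log2 scale (SE 0.105, limma adjusted p = 0.0226), but it did not pass without morphine library 2 or saline library 1, 2 or 3 (adjusted p from 0.0522 to 0.0707). PTPRC passed in edgeR (adjusted p = 0.0317) and DESeq2 (adjusted p = 0.0452) but not in the authors' deposited table (adjusted p = 0.0741). The ratio of ITGAM to PTPRC was 4.63, 3.78 and 4.05 in morphine libraries and 1.33, 1.02 and 1.61 in saline libraries.

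CORO1A, an actin regulator of leukocytes, had 3765, 3492 and 3474 normalized counts in morphine libraries and 3232, 3046 and 3225 in saline libraries, and the immune checkpoint gene VSIR had 1355, 1379 and 1360 in morphine and 1169, 1261 and 1253 in saline libraries. In both the morphine libraries were all higher, by small log2 fold changes of 0.17 ± 0.0596 and 0.15 ± 0.0535 that did not pass in limma (adjusted p = 0.0852 and 0.0904). CORO1A passed in edgeR (adjusted p = 0.0299). The actin bundler LCP1, the exchange factor DOCK8 and the leukotriene pathway gene ALOX5AP had log2 fold changes of 0.22, 0.37 and 0.40 with overlapping groups, and did not pass.

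The lists of related genes were chosen with earlier results of these data known and are given by their counts. Of 34 other myeloid genes tested, 7 rose and 3 fell, which at 20.6% and 8.82% is above and below the background of 12.9% and 15.0%. Their median log2 fold change was 0.26, and 4 to 6 rose and 1 or 2 fell without 1 library. NCKAP1L, an actin regulator of blood cells, averaged 833 ± 9.99 normalized counts in the morphine libraries and 480.2 ± 29.2 in the saline libraries (SD, n = 3 each). CD37 rose by 0.86 and HCLS1, a cortactin relative of blood cells, by 0.76, while the tetraspanin CD53 fell by 0.53 on the log2 scale, so this list too held changes in both directions. Of 17 further genes of lysosomes and phagosomes 5 rose (29.4%, where 12.9% of all genes tested rose). Among them were GUSB (0.63), LAMP1 (0.63), LGMN (0.44) and GRN (0.37 on the log2 scale). The other 12 did not pass, and 4 rose in each fit without 1 library. The progranulin gene GRN and the lysosomal membrane gene LAMP1 are used by neurons as well as by microglia.

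Of 12 signals to microglia and their receptors 3 fell in limma (25.0%, where 15.0% of all genes tested fell) and the other 9 did not pass. In edgeR 3 were called as higher and 4 as lower, where 16.3% and 17.7% of all genes tested were. TGFB2, a cytokine of the family that maintains microglia, averaged 1276 ± 41.5 normalized counts in the morphine libraries and 2435 ± 73.5 in the saline libraries (SD, n = 3 each), a log2 fold change of -0.93 ± 0.0542 (limma adjusted p = 0.00179). CD200, a neuronal surface protein that restrains microglia, fell by 0.25 on the log2 scale, and the receptor TYRO3, a relative of MERTK and AXL that neurons carry, fell by 0.22. CD200 passed without saline library 3 but in none of the other 5 such fits, and TYRO3 passed in none of the 6. Of the list 1 to 3 genes fell in these fits.

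Of 6 tested markers of blood monocytes and neutrophils 0 rose and 0 fell in limma, where 12.9% of all genes tested rose and 15.0% fell. In edgeR and DESeq2 0 passed, where 34.0% and 36.8% of all genes tested did. A list of 6 genes is too short to tell 0 from these shares. At an unadjusted limma p under 0.05 there were 2. Their list summed to 1036 to 1178 normalized counts in the morphine libraries and 916 to 1096 in the saline libraries. VCAN (mean of all libraries 617), which is also on the oligodendrocyte precursor list, and LYZ (333) made up most of this sum. The other 4 tested markers averaged 16.04 to 40.4 normalized counts. The neutrophil gene S100A9, below the level for testing, had no reads in 1 morphine library and in 2 saline libraries. Of 3 tested lymphocyte markers the B cell gene MS4A1 rose, with 24.5 to 29.8 normalized counts in the morphine libraries and 5.27 to 11.0 in the saline libraries. The T cell gene CD3E fell, with 27.2 to 38.3 in morphine and 48.1 to 61.2 in saline libraries, but it did not pass in edgeR or DESeq2. CD79A, NKG7 and KLRD1 were below the level for testing.

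**Figure D4:**
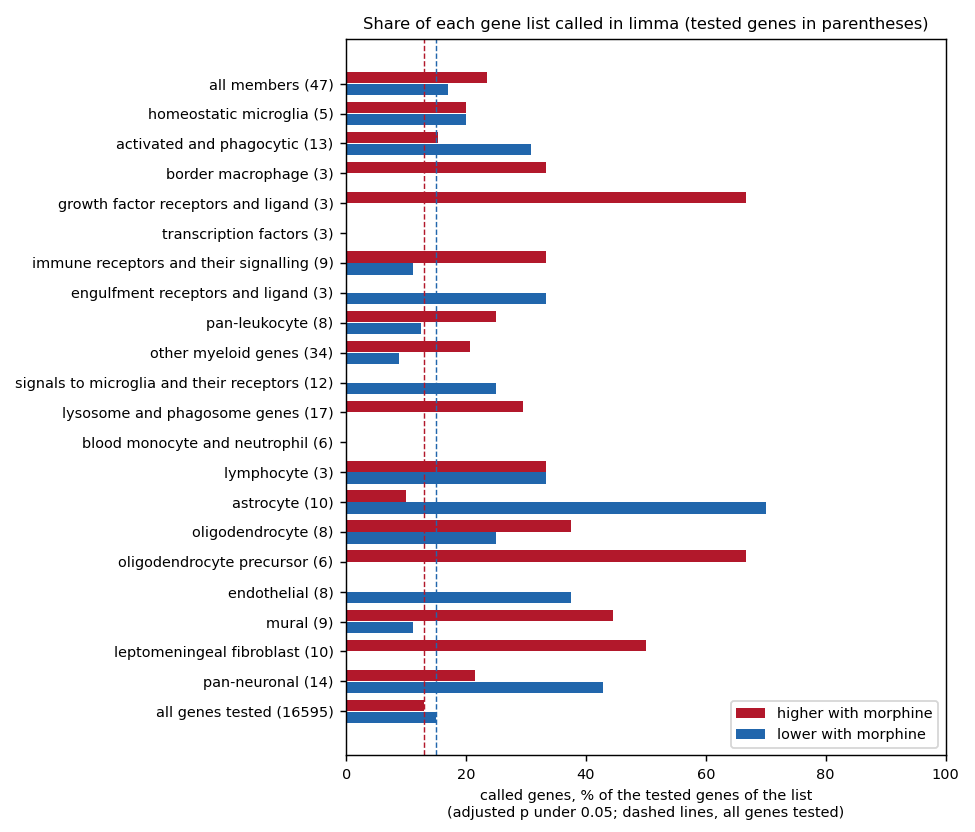
Share of the tested genes of each list that limma called as higher (red) or lower (blue) with morphine, with the number of tested genes in parentheses and dashed lines at the shares over all genes tested (12.9% and 15.0%). Of the macrophage genes 23.4% were higher and 17.0% lower, while the largest share of lower genes, 70.0%, was in the astrocyte list.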

How the data were processed

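RNA from 6 libraries, 3 per group, was analysed. The authors deposited, per library, counts divided by a size factor (a signal scale), and, in a table of their own comparison, log2 fold changes with their errors, a test score and p-values. Per the submitters' processing notes, the tools were DESeq2 1.18.1, StringTie and Bowtie2 2.1.0, with hg19 given as the build and no roles stated. The gene identifiers are rhesus, so which build the reads were aligned to is unclear, and the order of steps and the use of strand are not given in the sources used here. Symbols were found for 15436 of 23191 identifiers in tables of gene names.

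The values are normalized, so the test was limma 3.58.1 (R 4.3.3) on log2(normalized count + 1), for genes with a mean of at least 10, with group as the only term and Benjamini-Hochberg adjustment over 16595 genes. Fold changes are on this scale, which for low genes can differ from a ratio of means in either direction, as for CSF3R and CD86, whose fold changes were larger than their ratios of means. All values (100%) were whole reads, within 0.001, once multiplied by each library's size factor. On these reads edgeR 4.0.16 called 5636 genes and DESeq2 1.42.0 called 6105, against 4631 in limma. Scripts were tested on simulated data. Libraries of a group differed by more than sampling noise (mean chi-square per gene 17.5 to 23.8), so none was counted as a repeat. The labels do not tie libraries to animals, so p-values measure the spread between libraries, which may be technical. Floors cover counting error only.

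The genes and lists were chosen with earlier results of these data known. Values per library are given for P2RY12, CSF1R, TREM2, TYROBP, CD163, MRC1, PTPRC and ITGAM, and for up to 3 further genes per role by smallest adjusted p, and up to 4 genes of each other list are named by the same order. TMEM119 and CX3CR1, also in this rule, were not analysed here. ITGAX, SYK, CD86, CD14, SPP1, MEF2C and SLC2A1 were added after their values were seen. Alternatives were other scalings, pseudocounts, minimum levels, tests, a replicate block, a stricter p and fits without 1 library.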

Additional observations from a re-analysis of the deposited data

How the results depend on the processing

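Of the 19 called macrophage genes, 8 kept their call under each alternative except the stricter p, and none changed direction under any. Over all 16595 genes the count of calls was 4631 in limma, 2993 with no minimum level, 1577 with the replicate block, 1532 at an adjusted p under 0.01 and 2536 to 3181 without 1 library. The 11 rises became 7 with the block, 6 at the stricter p and 7 to 9 without 1 library. The 8 falls became 5 with no minimum level, 2 with the block, 3 at the stricter p and 4 to 6 without 1 library. The homeostatic rise was lost, leaving 0, with the block and at the stricter p. The 3 rises among activated and border genes became 5 with an intensity trend, in edgeR, in DESeq2 and in the authors' deposited table, and the 4 falls became 1 with the block and 2 at the stricter p. Medians without 1 library were -0.28 to -0.11 for homeostatic and 0.10 to 0.24 for activated and border genes. The cause of these shifts was not tested.

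Replicate numbers shared by the groups showed no pairing, with correlations of deviations from -0.0563 to -0.00392. Directions that turned in fits without 1 library belonged to genes that did not pass: P2RY13 (-0.19 to 0.080), LYVE1 (-0.36 to 0.52), IRF8 (-0.14 to 0.13), BLNK (-0.17 to 0.29), FCER1G (-0.016 to 0.46), CD68 (-0.015 to 0.14), CD86 (-0.28 to 2.39) and RUNX1 (-0.056 to 0.74). Genes with few reads, such as LYVE1 and RUNX1, had SEs too wide to show a change of the size seen in P2RY12.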

Other observations

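Single libraries stood apart in some genes near this set, and their values, chosen after they were seen, are given with no explanation. MEF2C, a transcription factor of neurons and microglia, had 7805, 8427 and 16795 normalized counts in morphine libraries and 7726, 22372 and 21180 in saline libraries. SLC2A1, the glucose transporter of brain vessels, had 10010.1 and 10307 normalized counts in morphine libraries 1 and 2 but 4424 in morphine library 3, where the saline libraries had 4446, 5090 and 5273.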
